A study of Mus musculus with 10 samples.

Results

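The genes described here are 10 genes of basophils, mast cells and eosinophils, the granulocytes of allergy and of the defence against parasites. They were taken by symbol: Prss34, Mcpt8, Cpa3, Prg2, Prg3, Epx, Fcer1a, Ms4a2, Hdc and Il1rl1, 10 of the 16771 genes listed for each library. All 10 symbols were found in every library. Bone marrow RNA of C57BL/6 mice was sequenced in 10 libraries, as 5 groups of 2 biological replicates. The mutant groups were Npm1c (genotype Npm1flox-cA/+;Mx1-Cre+), Flt3-ITD (Flt3ITD/+) and the double mutant (Npm1flox-cA/+;Flt3ITD/+;Mx1-Cre+), each as lineage-negative haematopoietic stem and progenitor cells (HSPC). The others were wild-type (WT) neutrophils and WT HSPC. Lineage-negative cells are what a magnetic column leaves after it has removed bone marrow cells with mature lineage markers, so they are a mixture of progenitors and of any mature cell that escapes the column. Mx1-Cre is a recombinase driven by an interferon-inducible promoter, carried by the Npm1c and double mutant mice and not named for the others. The labels give neither the age of the mice nor how or when Cre was induced. In acute myeloid leukaemia, mutations of NPM1, a nucleolar protein that the mutation sends to the cytoplasm, often occur with mutations of FLT3, a growth factor receptor with kinase activity. The study asked how each mutation and the pair of them change expression in these progenitors.

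Basophils and mast cells carry the high-affinity IgE receptor on their surface, and when IgE on it is cross-linked by antigen they release histamine and proteases stored in granules. Basophils and eosinophils mature in the bone marrow, whereas mast cells leave it as progenitors and mature in tissues. GATA1, GATA2 and members of the C/EBP family are transcription factors of these lineages, and interleukin 3, interleukin 5, interleukin 33 and stem cell factor are among their cytokines. Among the genes described, Prss34 and Mcpt8 encode granule serine proteases of mouse basophils, and Cpa3 encodes carboxypeptidase A3 of mast cell and basophil granules. Prg2 encodes eosinophil major basic protein, Prg3 its homologue and Epx eosinophil peroxidase. Fcer1a and Ms4a2 encode the alpha and beta chains of the IgE receptor. Hdc encodes histidine decarboxylase, which makes histamine, and Il1rl1 encodes ST2, the receptor for interleukin 33.

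Expression was deposited as RPKM, the reads on a gene divided by its length and by the library total. Whole reads per gene could be worked out from these values, and the library totals ran from 40783015 to 57824373 reads. The WT neutrophil libraries held their markers at a summed 99403 and 99129 RPKM, against 75.5 and 56.8 RPKM in WT HSPC, so the label fits those markers. Summed HSPC markers were 48.5 and 50.6 RPKM in the double mutant, against 388 and 399 RPKM in WT HSPC, and Mpo, a myeloid granule peroxidase gene, made up most of the WT sums. Without Mpo the sums were 30.9 RPKM in both double mutant libraries, against 103 and 102 RPKM in WT HSPC. Of 7 HSPC markers tested, 6 were called lower in the double mutant and 1, Ly6a, higher. Summed monocyte and macrophage markers were 715 and 711 RPKM in the double mutant, against 145 RPKM in both WT HSPC libraries, and the macrophage gene Mpeg1 alone was at 580 and 578 RPKM against 22.5 and 20.7 RPKM. Without Mpeg1 the sums were 135 and 133 RPKM in the double mutant, against 123 and 125 RPKM in WT HSPC, and of the 10 markers 6 were called higher, 2 lower (F13a1 and Fcgr3) and 2 did not pass. No marker of either list was at 0 in any library. Summed levels of 4 Y-linked genes stood at 12.6 RPKM in Npm1c replicate 2 and 13.4 RPKM in Flt3-ITD replicate 1 and at or below 0.00813 RPKM in the other 8 libraries, so the single-mutant replicates differ in a way the groups do not explain. By the median gene, the replicates of the double mutant and of the neutrophils lay close to sampling noise. Their median chi-square per gene was 0.557 and 0.662 where sampling alone gives 0.455, and they were kept as 2 replicates each. Their mean chi-squares were larger, 3.43 and 2.30. The median was 1.07 in WT HSPC, 1.74 in Npm1c and 4.08 in Flt3-ITD.

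In WT HSPC the 10 genes were expressed at very different levels. Prss34 was the highest at 267 ± 8.25 RPKM (SD, n = 2), followed by Mcpt8 at 145 ± 4.42, Prg2 at 108 ± 4.46 and Cpa3 at 45.2 ± 2.16 RPKM. The other 6 formed a lower tier between Fcer1a at 11.7 ± 0.158 RPKM and Prg3 at 4.57 ± 0.448 RPKM. Within that tier Hdc (5.14 ± 0.0837 RPKM) and Prg3 did not overlap, but their difference was hardly larger than the spread of Prg3. These comparisons between genes are per base of the length behind the RPKM. For Ms4a2 it was 5630 bases against 2813 bases of annotated exons, and for Il1rl1 14567 against 6894. It was also longer for Fcer1a (1814 against 998), Prg3 (1419 against 949), Hdc (8360 against 6389), Epx (3330 against 2737) and Cpa3 (1832 against 1517). Levels of these genes would be higher per annotated exon, and the order within the lower tier, that of Hdc and Prg3 included, depends on the length used. Summed over the 10 genes, RPKM was 357 and 452 for the Npm1c libraries, 567 and 247 for Flt3-ITD, 11.5 and 15.3 for the double mutant, 710 and 696 for WT neutrophils and 602 and 618 for WT HSPC. The double mutant stood below every other library, and all 4 single-mutant libraries lay between it and WT HSPC.

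**Figure D1:**
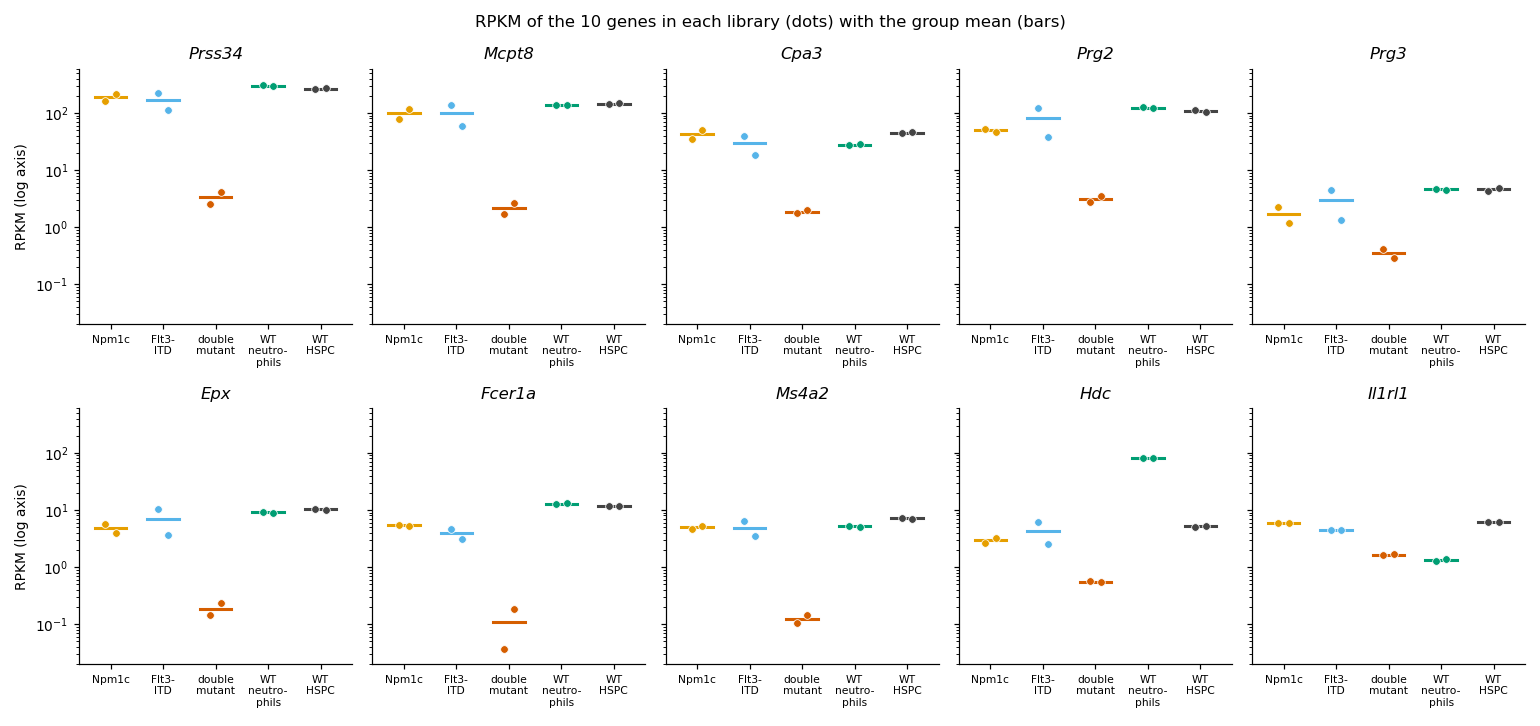
RPKM (log axis) of each of the 10 genes in each library, with dots for the 2 libraries of a group and a bar at the group mean. The double mutant libraries lie below all other HSPC libraries for every gene, from 0.0372 RPKM for Fcer1a to 4.14 RPKM for Prss34.

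All 10 genes fell in double mutant HSPC against WT HSPC, from 107-fold for Fcer1a to 3.76-fold for Il1rl1 by the ratio of mean RPKM. They include the genes with the lowest and the next lowest log2 change among all 9702 genes tested, Prss34 and Mcpt8. Tests were run with limma on log2(RPKM + 0.5), p-values were adjusted over all tested genes, and log2 changes are given relative to the median tested gene. That gene itself moved by -0.34 in this comparison. Falls were common, since 58.9% of all tested genes were called lower, so the count of 10 of 10 called says little by itself. Of all tested genes, 4.05% were called lower and at least 2-fold below the median gene, and 10 of the 10 genes met that rule. All 10 passed the expression minimum of 1 RPKM in at least 2 libraries, but Prg3, Epx, Fcer1a, Ms4a2 and Hdc were below 1 RPKM in both double mutant libraries and passed it through the other groups.

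Prss34 and Mcpt8, the basophil granule proteases and the most abundant of the genes in WT HSPC, had the lowest log2 changes. By the ratio of mean RPKM they fell 80.5-fold and 67.8-fold, which is less than the 107-fold of Fcer1a. Prss34 had 2.49 and 4.14 RPKM in the double mutant, against 261 and 273 RPKM in WT HSPC. These rest on 134 and 243 reads against 17501 and 19105 reads. Both double mutant libraries lay far below both WT libraries, at 1.24% of the WT mean, and the log2 change was -5.83 ± 0.34 (SE; adjusted p = 3.68e-06, limma). Mcpt8 had 1.67 and 2.60 RPKM in the double mutant and 142 and 148 RPKM in WT HSPC, a log2 change of -5.47 ± 0.39 (adjusted p = 8.88e-06). Cpa3 kept a larger share of its WT level, 4.14%, with 1.73 and 2.02 RPKM in the double mutant against 43.7 and 46.8 RPKM in WT HSPC (log2 change -3.93 ± 0.33, adjusted p = 1.71e-05). The microRNA genes Mir6949 and Mir7007 lie within Mcpt8 and Cpa3 on the same strand, and reads of these small genes could not be told from those of their hosts.

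The eosinophil granule genes also fell. Prg2 had 2.73 and 3.50 RPKM in the double mutant, against 111 and 105 RPKM in WT HSPC (log2 change -4.58 ± 0.47, adjusted p = 5.13e-05). Epx was at 0.142 and 0.229 RPKM, or 21 and 37 reads, in the double mutant and at 10.4 and 10.2 RPKM in WT HSPC, which leaves 1.80% of the WT mean (log2 change -3.64 ± 0.40, adjusted p = 6.78e-05). Prg3, which lies 3′ of Prg2 on chromosome 2, was at 0.412 and 0.291 RPKM in the double mutant, against 4.25 and 4.89 RPKM in WT HSPC (log2 change -2.24 ± 0.44, adjusted p = 0.00108). No double mutant library overlapped a WT library for any of the 3 genes, and Prg3, at 7.69% of its WT mean, kept the largest share among them. Because 0.5 is added before the logarithm, the log2 changes of Epx and Prg3 understate their ratios, which for Epx is 55.4-fold.

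Fcer1a and Ms4a2, the alpha and beta chains of the IgE receptor, were left with few reads in the double mutant. Fcer1a, the chain that binds IgE, had 0.0372 and 0.182 RPKM there, from 3 and 16 reads, against 11.6 and 11.9 RPKM from 1167 and 1243 reads in WT HSPC. Its 2 double mutant values differ 4.89-fold from each other, but both are far below the WT values, with a log2 change of -4.00 ± 0.17 (adjusted p = 9.99e-07). Ms4a2, the signal-amplifying beta chain, had 0.104 and 0.143 RPKM in the double mutant and 7.36 and 6.98 RPKM in WT HSPC (log2 change -3.28 ± 0.22, adjusted p = 5.82e-06). The constant added before the logarithm shrinks the log2 changes of Fcer1a and Ms4a2 as well. By the ratio of mean RPKM they fell 107-fold and 58.1-fold. Hdc and Il1rl1 fell least. Hdc was at 0.562 and 0.551 RPKM in the double mutant, against 5.08 and 5.20 RPKM in WT HSPC, or 10.8% of the WT mean (log2 change -2.08 ± 0.31, adjusted p = 2.52e-04). Il1rl1 had 1.62 and 1.66 RPKM in the double mutant, against 6.10 and 6.26 RPKM in WT HSPC, or 26.6% of the WT mean. It had the smallest SE and the smallest adjusted p of the 10 genes (log2 change -1.30 ± 0.050, adjusted p = 2.76e-07). In bulk RNA, fewer cells of a type and less RNA per cell cannot be told apart, and this holds for each fall described here. The summed HSPC and monocyte markers given above moved in the same comparison, and their part in these falls was not tested.

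**Figure D2:**
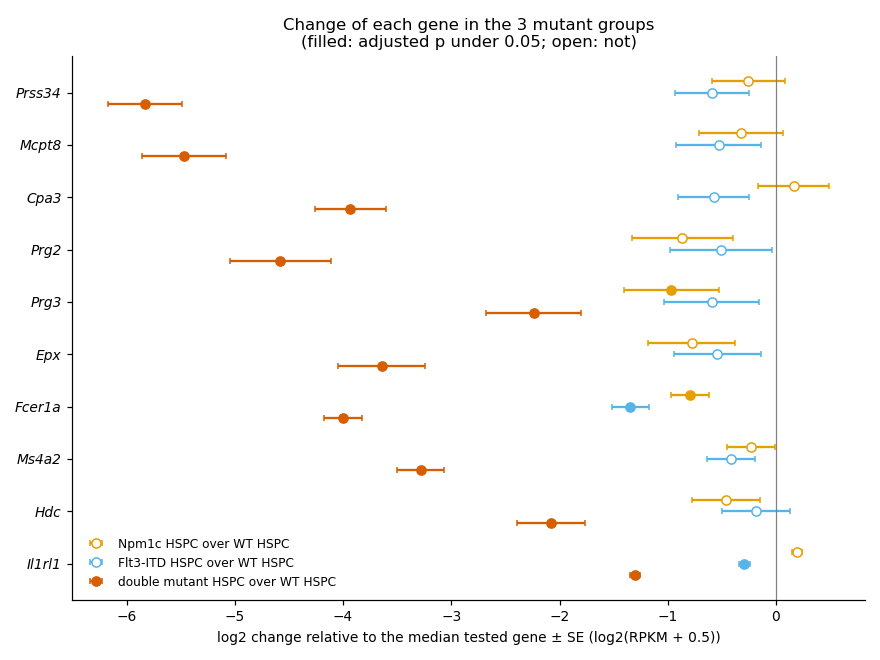
Log2 change of each gene relative to the median tested gene, with its SE, in the 3 mutant HSPC groups over WT HSPC (2 libraries a group). Filled points had an adjusted p under 0.05. The double mutant changes run from -5.83 for Prss34 to -1.30 for Il1rl1, while the single-mutant changes lie between -1.34 and 0.19.

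The double mutant was also below each single mutant for all 10 genes. Against Npm1c HSPC, 10 of 10 were called lower, where 43% of all tested genes were. Against Flt3-ITD HSPC it was again 10 of 10, where 48.8% of all tested genes were. These comparisons share the double mutant libraries with the comparison against WT HSPC. Relative to Npm1c the log2 change ran from -5.56 ± 0.34 for Prss34 (adjusted p = 6.49e-06) to -1.25 ± 0.44 for Prg3 (adjusted p = 0.0254). Relative to Flt3-ITD it ran from -5.25 ± 0.34 for Prss34 (adjusted p = 8.68e-06) to -1.02 ± 0.050 for Il1rl1 (adjusted p = 1.22e-06). Prg3 lost its call against Npm1c without Npm1c replicate 1 (adjusted p = 0.150) or without either double mutant library (adjusted p = 0.0642 and 0.0990), and kept it against Flt3-ITD.

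Whether the double mutant fell further than the single mutants added together was tested with the interaction term, which subtracts the single-mutant changes from the double mutant change on the log2 scale. For 9 of 10 genes it was called lower, where 27.6% of all tested genes were, and the same 9 were also at least 2-fold below the median gene, where 4.93% of all tested genes were. For Prss34 the single-mutant changes as deposited, -0.52 and -0.73, add up to -1.25, while the double mutant change was -6.17. For Mcpt8 the sum was -1.26 and the double mutant change -5.81. Cpa3 had a sum of -0.82 and a double mutant change of -4.27, and Prg2 a sum of -1.78 and a double mutant change of -4.92. Fcer1a had the lowest sum, -2.54, and a double mutant change of -4.34. The interaction, relative to the median gene, was -5.01 ± 0.48 for Prss34 (adjusted p = 1.22e-04), the lowest of all tested genes, and -1.23 ± 0.070 for Il1rl1 (adjusted p = 1.43e-05). Prg3 was the exception, with a sum of -1.97, a double mutant change of -2.57 and an interaction of -0.70 ± 0.62 (adjusted p = 0.411). Its mean of 0.352 RPKM in the double mutant lies below the 0.5 added, which shrinks its fall. Over the alternatives its interaction ran from -1.36 to -0.053, so the missing call does not show that the changes add up. Hdc was the weakest of the 9 (-1.46 ± 0.44, adjusted p = 0.0290) and lost its call when either Npm1c library, either double mutant library or either WT HSPC library was left out, with adjusted p up to 0.0966.

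**Figure D3:**
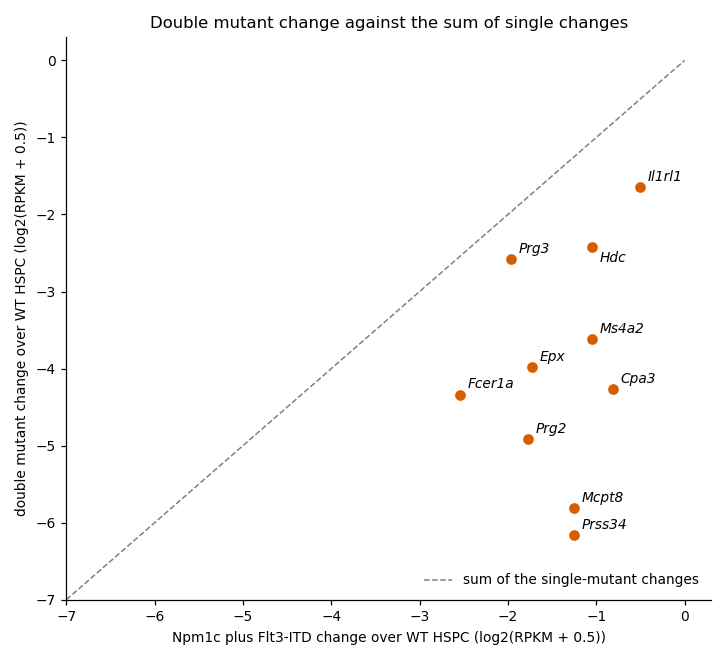
Double mutant change over WT HSPC (vertical axis) against the sum of the Npm1c and Flt3-ITD changes over WT HSPC (horizontal axis), both on the log2(RPKM + 0.5) scale as deposited, 1 point a gene. The dashed line marks equality; Prg3 lies nearest to it and Prss34 and Mcpt8 lie furthest below it.

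In Npm1c HSPC the means of all 10 genes lay below those of WT HSPC, but few passed the test. Of the 10, 2 were called lower, Fcer1a and Prg3, where 58.1% of all tested genes were called lower, so the share of the 10 genes was below the background. The median gene moved by -0.26. Fcer1a had 5.50 and 5.29 RPKM in Npm1c, against 11.6 and 11.9 RPKM in WT HSPC. Its replicates agree closely and lie at 46.0% of the WT mean, with a log2 change of -0.79 ± 0.17 (adjusted p = 0.00302). Prg3 had 2.25 and 1.19 RPKM in Npm1c, against 4.25 and 4.89 RPKM in WT HSPC (log2 change -0.97 ± 0.44, adjusted p = 0.0451), and the call was lost when any 1 Npm1c, double mutant or WT HSPC library was left out, with adjusted p up to 0.214. The other eosinophil genes were near the threshold. Prg2 was at 52.5 and 46.2 RPKM in Npm1c and 111 and 105 RPKM in WT HSPC (adjusted p = 0.0730), and Epx was at 5.66 and 3.97 RPKM in Npm1c and 10.4 and 10.2 RPKM in WT HSPC (adjusted p = 0.0576). Neither overlapped WT HSPC. Without either of the Flt3-ITD libraries, which enter the shared estimate of the spread, 7 of 10 genes were called lower in Npm1c, among them Prg2 (adjusted p = 1.20e-04 without Flt3-ITD replicate 1) and Epx (5.73e-04). In those fits 69.6% of all tested genes were called lower, about the share of the 10.

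Basophil and mast cell proteases were nearer to WT levels in Npm1c than the eosinophil genes were. Prss34 was at 164 and 213 RPKM in Npm1c and 261 and 273 RPKM in WT HSPC (adjusted p = 0.220), and Mcpt8 at 79.0 and 118 RPKM in Npm1c and 142 and 148 RPKM in WT HSPC (adjusted p = 0.226). Cpa3, at 35.4 and 50.2 RPKM in Npm1c, overlapped WT HSPC at 43.7 and 46.8 RPKM (adjusted p = 0.806). Ms4a2 was at 4.62 and 5.33 RPKM in Npm1c, against 7.36 and 6.98 RPKM in WT HSPC (adjusted p = 0.0919), and Hdc at 2.60 and 3.26 RPKM against 5.08 and 5.20 RPKM (adjusted p = 0.0807). Il1rl1 stood at 95.0% of its WT mean (adjusted p = 0.266). The difference between the protease and eosinophil genes was itself not tested.

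Flt3-ITD HSPC had 2 of 10 genes called lower, Fcer1a and Il1rl1, where 31.3% of all tested genes were, and the median gene moved by -0.14. Fcer1a had 4.72 and 3.15 RPKM in Flt3-ITD, against 11.6 and 11.9 RPKM in WT HSPC. Both libraries were below WT, and the log2 change of -1.34 ± 0.17 (adjusted p = 0.00342) was the sixth lowest of all tested genes. Il1rl1 had 4.38 and 4.50 RPKM in Flt3-ITD, against 6.10 and 6.26 RPKM in WT HSPC (log2 change -0.29 ± 0.050, adjusted p = 0.00322). The remaining 8 genes did not pass, with adjusted p between 0.0935 for Ms4a2 and 0.457 for Hdc.

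That result rests on a wide gap between the 2 Flt3-ITD libraries. Prss34 was at 228 RPKM in replicate 1 and 113 RPKM in replicate 2, Mcpt8 at 138 and 59.2 RPKM, and Cpa3 at 40.0 and 18.6 RPKM. For the eosinophil genes the gap was larger, 124 and 37.9 RPKM for Prg2, 4.51 and 1.35 RPKM for Prg3, and 10.4 and 3.64 RPKM for Epx. Replicate 1 exceeded replicate 2 by 1.81-fold for Ms4a2 and 2.39-fold for Hdc, up to 3.35-fold for Prg3, whereas Il1rl1 was at 4.38 RPKM in replicate 1 and 4.50 RPKM in replicate 2. In replicate 1 Prg2, Epx and Hdc were at 115%, 101% and 119% of the WT mean, and in replicate 2 every gene except Il1rl1 was between 26.8% and 49.7% of it. Without replicate 1, 10 of 10 genes were called lower in Flt3-ITD, where 56.4% of all tested genes were, for example Prg2 with a log2 change of -1.29 (adjusted p = 6.08e-04). Without replicate 2, 2 genes were called lower, where 28.7% of all tested genes were, and Mcpt8, Prg2, Prg3, Epx and Hdc had relative changes above 0. Either fit assumes that the lone library varies like the other groups. Flt3-ITD replicate 1 is also 1 of the libraries with Y-linked reads, and its summed HSPC markers were 559 RPKM against 295 RPKM in replicate 2. Mpo alone gave 457 RPKM and 220 RPKM of these sums, and the other 9 markers 102 RPKM in replicate 1 and 75.4 RPKM in replicate 2. Of the T and NK cell markers, Nkg7 was at 69.5 RPKM in replicate 1 and 21.8 RPKM in replicate 2, whereas the other 9 summed to 1.23 RPKM in replicate 1 and 2.30 RPKM in replicate 2. Neutrophil markers summed to 300 RPKM in replicate 1 and 260 RPKM in replicate 2. The part of these differences in the gap was not tested. With a term for Y-linked reads, an alternative chosen after seeing the data, 9 of 10 genes were called lower in Npm1c, where 67.7% of all tested genes were, and 7 of 10 in Flt3-ITD, where 43.8% were.

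The Npm1c libraries also differed from each other, but not in 1 direction. Replicate 2, the one with Y-linked reads, was 1.30-fold above replicate 1 for Prss34, 1.49-fold for Mcpt8 and 1.42-fold for Cpa3. Replicate 1 was above replicate 2 for the eosinophil genes, 1.14-fold for Prg2, 1.88-fold for Prg3 and 1.43-fold for Epx. Summed neutrophil markers were 88.4 RPKM in replicate 1 and 413 RPKM in replicate 2. In the WT HSPC and neutrophil pairs no gene differed by more than 1.15-fold between replicates.

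**Figure D4:**
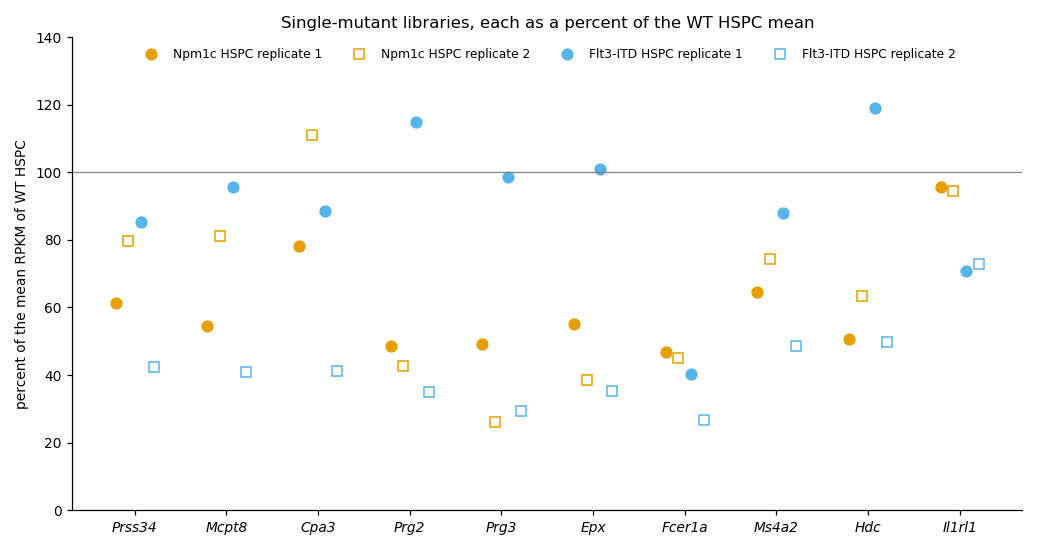
RPKM of each gene in the 4 single-mutant libraries as a percent of the mean of the 2 WT HSPC libraries (line at 100). Flt3-ITD replicate 1 lies between 85.3% and 119% of the WT mean for 8 genes and Flt3-ITD replicate 2 between 26.8% and 49.7% for all but Il1rl1, while Fcer1a is at 46.9% or less in all 4 libraries.

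By RPKM, the WT neutrophil libraries held most of these genes at about the level of WT HSPC. In bulk RNA, expression by neutrophils and by any other cells in these samples cannot be told apart. Of the 10, 1 was called lower, Il1rl1, where 62.8% of all tested genes were, and 1 was called higher, Hdc, where 28.4% of all tested genes were. Hdc had 81.5 and 81.0 RPKM in neutrophils, against 5.08 and 5.20 RPKM in WT HSPC, a 15.8-fold rise (log2 change relative to the median gene 4.56 ± 0.29, adjusted p = 1.86e-06). Il1rl1 had 1.26 and 1.36 RPKM in neutrophils, against 6.10 and 6.26 RPKM in WT HSPC (-1.19 ± 0.049, adjusted p = 2.43e-09). The median gene moved by -0.70 here. Prss34 was at 305 and 293 RPKM in neutrophils and 261 and 273 RPKM in WT HSPC (adjusted p = 0.632). Mcpt8 was at 138 and 139 RPKM in neutrophils and 142 and 148 RPKM in WT HSPC (adjusted p = 0.869). Prg2, Prg3, Epx and Fcer1a were likewise within 1.15-fold of WT HSPC by their means. Relative to the median gene these genes lay higher in neutrophils, without a call. The changes were 0.86 for Prss34, 0.63 for Mcpt8, 0.89 for Prg2, 0.71 for Prg3, 0.52 for Epx and 0.84 for Fcer1a. Cpa3 was lower in value, at 27.1 and 28.3 RPKM in neutrophils against 43.7 and 46.8 RPKM in WT HSPC, without passing the test (adjusted p = 0.0575), as was Ms4a2, at 5.20 and 5.09 RPKM against 7.36 and 6.98 RPKM (adjusted p = 0.0698). The spread used in these tests includes that of the Flt3-ITD pair, and without either Flt3-ITD library 3 genes were called lower, Il1rl1, Cpa3 and Ms4a2, where 64.3% of all tested genes were. Without Flt3-ITD replicate 1 the changes of Cpa3 and Ms4a2 relative to the median gene were 0.0041 and 0.26, so neither lay below that gene. Scaling by the median of ratios called 5 genes higher in neutrophils in place of 1, where 45.8% of all tested genes were called higher under that scaling.

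Ratios within a library do not depend on the library total. Mcpt8 was 0.670 and 0.627 of Prss34 in the double mutant and 0.542 of it in both WT HSPC libraries, and over all 10 libraries the ratio stayed between 0.452 and 0.670. The fall of these proteases thus left their ratio to each other nearly in place. Cpa3 was 0.696 and 0.487 of Prss34 in the double mutant, against 0.167 and 0.171 in WT HSPC. Prg2 was 1.10 and 0.845 of Prss34 in the double mutant and 0.426 and 0.385 in WT HSPC. It was lower, at 0.321 and 0.217, in Npm1c. Prg3 was 0.151 and 0.0832 of Prg2 in the double mutant, against 0.0382 and 0.0466 in WT HSPC. The double mutant thus held a mixture of these transcripts that differed from WT HSPC, with Prss34 reduced more than Cpa3 or Prg2. In neutrophils Cpa3 was 0.0890 and 0.0963 of Prss34, below all HSPC libraries.

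Other genes of these lineages did not all follow. Of 20 further genes of basophils, mast cells and eosinophils, 19 were among the genes listed for each library. Of those, 8 were expressed highly enough to be tested in HSPC. In the double mutant 5 of the 8 fell and 3 rose against WT HSPC, with a median log2 change of -1.32. Over all tested genes 58.9% were called lower, as above, and 23.9% higher. The eosinophil ribonuclease genes Ear1, Ear2 and Ear6 did not move together. Ear1 and Ear6 fell, and Ear1 was at 0.0183 and 0.0504 RPKM in the double mutant, from 1 and 3 reads, against 5.52 and 6.44 RPKM in WT HSPC (log2 change -3.26 ± 0.47, adjusted p = 2.51e-04). Ear2 rose to 19.8 and 19.6 RPKM in the double mutant, against 8.29 and 8.20 RPKM in WT HSPC (1.55 ± 0.45, adjusted p = 0.0375), and lost its call in 7 of 16 alternatives, among them each without an Npm1c, double mutant or WT HSPC library, with adjusted p up to 0.115. These genes belong to a family of close copies, so the division of reads among them is uncertain. Slc18a2, the vesicular monoamine transporter that loads histamine into granules, fell to 1.44 and 1.41 RPKM in the double mutant, against 5.71 and 5.51 RPKM in WT HSPC (-1.33 ± 0.078, adjusted p = 1.87e-06). Itga2, an integrin chain gene of mouse basophils, fell too (-1.32 ± 0.17, adjusted p = 7.60e-05). Ptgdr2, the prostaglandin D2 receptor CRTH2, rose to 3.92 and 3.78 RPKM, against 0.0479 and 0.0786 RPKM in WT HSPC (3.29 ± 0.062, adjusted p = 5.93e-08). Ccr3, the eotaxin receptor, rose to 1.98 and 2.04 RPKM in the double mutant, against 0.171 and 0.143 RPKM in WT HSPC (2.27 ± 0.064, adjusted p = 4.12e-07). Ptgdr2 and Ccr3 were below 1 RPKM in WT HSPC and passed the expression minimum only through the double mutant libraries. Each was therefore tested in only 14 of the 16 alternatives. Their place among the 8 rests on the group where they are high, so the count of 3 that rose is no support for a pattern. Of the 3, only Ear2 was above 1 RPKM in WT HSPC. Each single mutant had 2 of the 8 called lower and 0 higher, beside the 58.1% and 31.3% of all tested genes called lower in Npm1c and Flt3-ITD.

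Most genes of IgE receptor signalling, a list that also holds the receptor's gamma chain Fcer1g, rose in the double mutant. Of 11 tested, 9 rose, 1 fell and 1 did not pass, with a median log2 change of 1.09, where 23.9% of all tested genes were called higher. Lyn, the kinase that phosphorylates the receptor, rose to 32.1 and 32.0 RPKM in the double mutant, against 7.64 and 7.56 RPKM in WT HSPC (2.34 ± 0.064, adjusted p = 3.63e-07). Fcer1g, the gamma chain that the IgE receptor shares with other Fc receptors, rose to 27.6 and 29.1 RPKM, against 17.0 and 16.7 RPKM in WT HSPC (1.07 ± 0.18, adjusted p = 0.00612). The kinase gene Fyn rose by 1.61, the phosphatase gene Inpp5d by 1.41 and the adaptor gene Lcp2 by 1.19 on the log2 scale. Of the 11, only Lat, another adaptor gene, fell (-0.38 ± 0.15, adjusted p = 0.00329). Of 9 cytokine receptor genes, 5 rose, 2 were called lower and 2 did not pass, with a median of 1.27, against the same shares over all genes. Csf2ra and Csf2rb, chains of the GM-CSF receptor, were among those that rose, Csf2ra to 34.1 ± 0.0930 RPKM in the double mutant against 5.43 ± 0.389 RPKM in WT HSPC (SD, n = 2 each). Csf2rb2 rose by 2.28 and Il4ra, the interleukin 4 receptor chain, by 1.58 on the log2 scale. Kit, the stem cell factor receptor, fell (-0.39 ± 0.075, adjusted p = 7.41e-05). Il1rap was called lower on the deposited scale but lay just above the median gene, at 0.064. It was not called with no minimum or with listed-gene scaling. Most of these genes are also expressed by monocytes and macrophages, of whose 10 markers 6 rose and 2 fell in the same comparison as given above, and the part of that was not tested.

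Of 11 transcription factor genes, 8 fell, 2 rose and 1 did not pass in the double mutant, with a median log2 change of -0.48. Since 58.9% of all tested genes were called lower, that count is not far from the background. Gata2, which basophils and mast cells need, had 0.949 and 1.02 RPKM in the double mutant, against 6.09 and 6.29 RPKM in WT HSPC (-1.84 ± 0.14, adjusted p = 6.86e-06). Gata1, which eosinophils need, had 21.4 and 21.1 RPKM, against 61.0 and 64.0 RPKM in WT HSPC (-1.20 ± 0.056, adjusted p = 6.60e-07). Zfpm1, which encodes the GATA1 partner FOG1, fell by 0.78 and Stat5a by 0.52 on the log2 scale. Both single mutants had Gata2 values below WT HSPC, at 5.31 and 5.80 RPKM in Npm1c, which did not pass, and at 4.48 and 3.12 RPKM in Flt3-ITD, which did. Irf8, a monocyte and dendritic cell factor, rose to 89.0 RPKM in both double mutant libraries, against 12.7 and 12.8 RPKM in WT HSPC (3.10 ± 0.13, adjusted p = 1.73e-06), and Spi1, which encodes PU.1, rose too (2.08 ± 0.21, adjusted p = 1.84e-04). Among 5 genes of mediator synthesis and granule storage, Alox5ap, which helps make leukotrienes, rose (2.42 ± 0.21, adjusted p = 7.09e-05), Ptgs1 and Ndst2 were called lower and 2 did not pass, with a median log2 change of 0.07. Ndst2, called lower on the deposited scale, lay just above the median gene at 0.072. Of the further genes of basophils, mast cells and eosinophils, 10 were tested in neutrophils, and 7 were called higher than in WT HSPC, among them Ear2, Ear1 and Alox15, and 1 lower, where 28.4% of all tested genes were called higher.

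**Figure D5:**
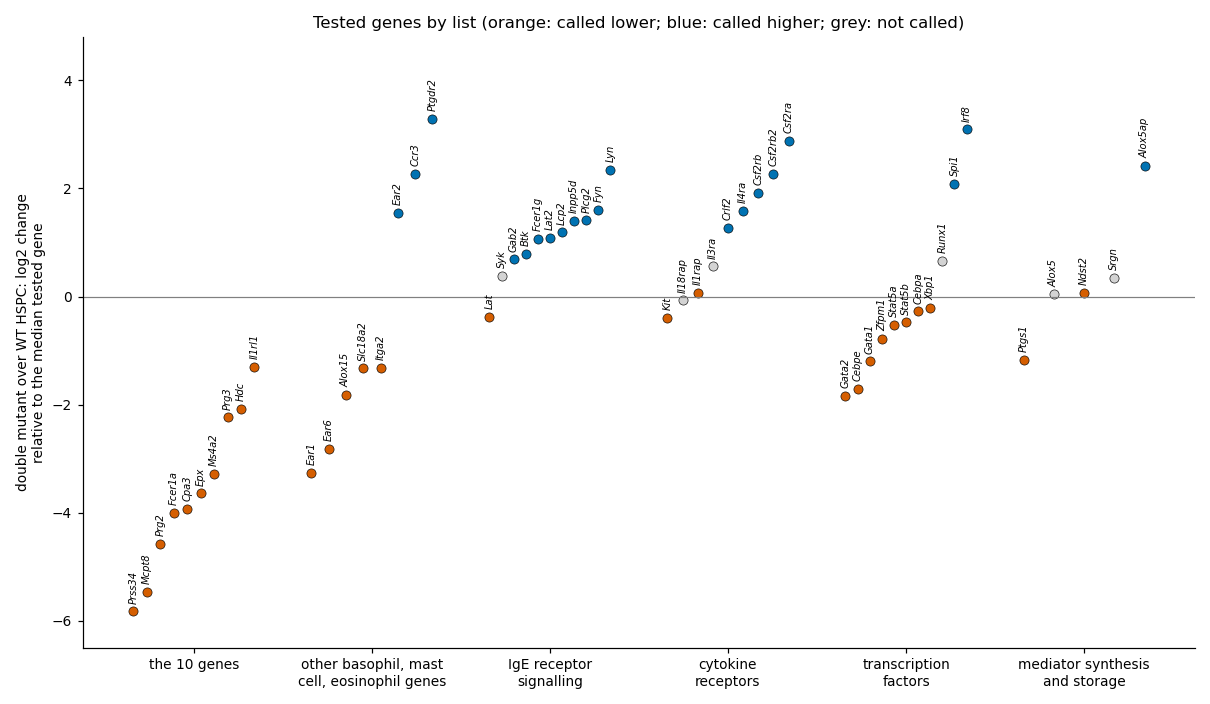
Log2 change of the double mutant over WT HSPC, relative to the median tested gene, for each tested gene of the 6 lists, sorted within its list. The 10 genes lie between -5.83 and -1.30, whereas the other lists hold genes on both sides of 0; colours follow the test on the deposited scale, so Il1rap and Ndst2 are coloured as lower although they lie just above the median gene.

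Among other genes, those close to the mean pattern of the 10 over the 8 HSPC libraries included Zkscan1, Susd1, Ttc13, Adgrg1, Ccny, Ide, Pebp1, Ubash3a and Gpld1, by Pearson's r of log2 values between 0.995 and 0.999. The measure is a description, since all these libraries share the step between the double mutant and the rest and the gap between the Flt3-ITD replicates. Zkscan1, for example, was at 4.66 and 4.48 RPKM in Npm1c, 5.07 and 4.06 RPKM in Flt3-ITD, 1.90 and 2.00 RPKM in the double mutant and 5.73 and 5.61 RPKM in WT HSPC. Adgrg1, an adhesion receptor gene, was at 8.91 and 9.23 RPKM in the double mutant and 34.5 and 36.3 RPKM in WT HSPC. The falls of these genes were smaller than those of Prss34 or Mcpt8.

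The promoters of the 10 genes were searched for the GATA motif, AGATAA or AGATAG or TGATAA or TGATAG on either strand. Whether GATA factors have a part in the falls was not tested. RefSeq promoters on GRCm38.p6, from 250 bases before the transcription start to 50 bases including it, were at hand for 9 of the 10 genes, with 10 promoters since Il1rl1 has 2. The motif occurred in 8 of the 10 promoters, both Il1rl1 promoters among them, and in 29.8% of 32851 promoters of all genes. Of the other motifs, CANNTG occurred in 9 of 10 promoters (72.3% of all), TTGCNNAA in 2 of 10 (10.8% of all) and TTCNNNGAA in 0 of 10 (8.30% of all). A match is a stretch of letters and not a shown binding site. The promoters of the proteases Prss34 (chr17:25298144-25298443, plus strand) and Cpa3 (chr3:20242132-20242431, minus strand) and of the receptor chains Fcer1a (chr1:173227180-173227479, minus strand) and Ms4a2 (chr19:11623670-11623969, minus strand) are shown because the motif lies within them, in Prss34, Cpa3 and Ms4a2 close to the start. That of Epx (chr11:87875487-87875786, minus strand) is shown as 1 of the 2 without it. Each reads 5′ to 3′ on the strand of the gene, and capitals mark the GATA motif or its reverse complement.
Prss34: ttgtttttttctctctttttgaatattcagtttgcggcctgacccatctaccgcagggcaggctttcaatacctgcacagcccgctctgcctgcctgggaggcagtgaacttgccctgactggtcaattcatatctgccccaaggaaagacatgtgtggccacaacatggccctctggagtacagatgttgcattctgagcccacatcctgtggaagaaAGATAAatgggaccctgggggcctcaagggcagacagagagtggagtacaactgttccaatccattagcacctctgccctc
Cpa3: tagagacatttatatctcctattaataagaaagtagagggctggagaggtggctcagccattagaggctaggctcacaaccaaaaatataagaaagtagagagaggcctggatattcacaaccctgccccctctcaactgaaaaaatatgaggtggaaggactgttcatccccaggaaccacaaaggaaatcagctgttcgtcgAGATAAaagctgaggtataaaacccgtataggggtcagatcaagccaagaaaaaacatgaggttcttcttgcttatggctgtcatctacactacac
Fcer1a: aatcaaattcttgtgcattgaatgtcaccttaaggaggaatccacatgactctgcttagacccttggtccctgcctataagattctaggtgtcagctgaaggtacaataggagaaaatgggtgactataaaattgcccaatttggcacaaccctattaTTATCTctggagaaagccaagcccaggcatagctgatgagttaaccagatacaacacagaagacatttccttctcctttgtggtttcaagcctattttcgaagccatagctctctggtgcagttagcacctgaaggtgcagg
Ms4a2: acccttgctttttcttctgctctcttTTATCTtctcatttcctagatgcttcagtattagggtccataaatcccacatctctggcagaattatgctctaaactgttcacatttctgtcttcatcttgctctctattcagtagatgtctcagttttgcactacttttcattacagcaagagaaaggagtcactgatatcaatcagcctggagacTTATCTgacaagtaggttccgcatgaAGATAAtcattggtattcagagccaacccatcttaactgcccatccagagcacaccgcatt
Epx: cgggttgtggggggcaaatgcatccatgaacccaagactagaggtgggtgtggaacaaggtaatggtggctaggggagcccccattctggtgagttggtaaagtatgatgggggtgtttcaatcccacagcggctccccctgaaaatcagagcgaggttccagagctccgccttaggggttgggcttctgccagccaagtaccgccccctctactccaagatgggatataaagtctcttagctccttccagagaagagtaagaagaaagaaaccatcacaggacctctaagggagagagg
Counted from the first transcribed base, the motif began at -31 in Prss34, at -46 in Cpa3, at -92 in Fcer1a and at -224, -37 and -11 in Ms4a2. It also began at -123 in Prg3 and at -221 in Hdc, and the 2 Il1rl1 promoters held 5 matches and 1 match. Mcpt8 and Epx, at 1.47% and 1.80% of the WT HSPC mean in the double mutant, had no match in this window. The relation of matches to falls was not tested.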

How the data were processed

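Ribosomal RNA was removed and directional libraries were prepared from 10 bone marrow samples, per the labels' protocols. The submitters' processing notes name genome mm10 with DiffBind, HTSeq and STAR 2.4.0; for annotation and strand settings, the sources used here give nothing. RPKM was deposited by the authors for 16771 genes per library; reads outside the listed genes enter the library total, so listed genes held 60.9% to 81.3% of it. Whole reads were recovered from the RPKM steps (tolerance 0.02 reads) to describe depth only. limma 3.58.1 in R 4.3.3 was fitted to log2(RPKM + 0.5) with a variance trend and Benjamini-Hochberg adjustment at 0.05, on genes with at least 1 RPKM in 2 libraries, with 8 HSPC libraries for HSPC comparisons (9702 genes) and all 10 for neutrophils (10174 genes). The 7 comparisons set each mutant and the neutrophils against WT HSPC and the double mutant against either single mutant, and tested the interaction. The fit was first tested on simulated data. Calls come from the deposited scale; log2 changes are relative to the median tested gene unless said otherwise. The genes, lists and tests were chosen with earlier results of these data known. From the other lineage lists, genes were named by smallest adjusted p, up to 4 a list and comparison; Ear1, Ear2, Ear6, Fcer1g, Lat, Csf2rb, Gata2, Spi1, Il1rap, Ndst2 and the markers Mpo, Mpeg1, Nkg7, Ly6a, F13a1 and Fcgr3 fall outside that rule and were named after their values were seen. Replicate numbers did not pair libraries: correlations of replicate deviations between HSPC groups ran from -0.11 to 0.036. Alternatives were pseudocounts of 0.1 and 1, no minimum or 0.2 RPKM, listed-gene and median-of-ratios scaling, a replicate block, each library left out, and a Y-linked term added after seeing the data. Positions and exon lengths are from GENCODE M21 on GRCm38.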

Additional observations from a re-analysis of the deposited data

Results flagged for a closer look

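The effect of one mutation differed with the other present for 9 of the 10 genes, by the test of the interaction itself (limma, adjusted over 9702 genes). All 9 were called lower, where 27.6% of all tested genes were called lower and 39.2% higher. Hdc and Epx lost their calls in some alternatives, as given below. Relative to the median gene the term was -5.01 for Prss34, -4.65 for Mcpt8, -3.55 for Cpa3, -3.23 for Prg2, -2.67 for Ms4a2, -2.35 for Epx, -1.89 for Fcer1a, -1.46 for Hdc and -1.23 for Il1rl1, with adjusted p between 1.43e-05 for Il1rl1 and 0.0290 for Hdc. In all 10 genes, Prg3 among them, both double mutant libraries were below all 6 other HSPC libraries, so that order does not set the 9 apart.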

How the results depend on the processing

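In double mutant HSPC against WT HSPC and against Flt3-ITD HSPC, 10 of 10 genes were called lower in all 16 alternatives. Against Npm1c HSPC only Prg3 was lost, in 5 of them. The interaction kept between 7 (Y-linked term) and 10 genes; Hdc was lost in 9 alternatives and Epx under that term (adjusted p = 0.0571). With all libraries kept, 41.1% to 60.8% of all tested genes were called lower in the double mutant against WT HSPC. Against Flt3-ITD HSPC that share was 33.7% to 48.8%. The single-mutant counts were unstable. In Npm1c the main count of 2 became 1 with no minimum, with a minimum of 0.2 RPKM, with listed-gene scaling and with median-of-ratios scaling, under which Il1rl1 was called higher (0.22, adjusted p = 0.0346). It became 9 with the Y-linked term, and 1 to 7 when a library was left out. In Flt3-ITD the count of 2 became 7 with the Y-linked term and 2 to 10 when a library was left out, 10 being without Flt3-ITD replicate 1. For neutrophils the count lower, 1, became 3 with listed-gene scaling and with the Y-linked term and 1 to 3 when a library was left out; the count higher, 1, became 5 with median-of-ratios scaling. The share of all tested genes called lower moved as well, between 18% and 69.6% in Npm1c and between 4.75% and 56.4% in Flt3-ITD. Of the single-gene values recomputed, relative to the median gene, 1058 kept direction and call, 43 gained and 25 lost a call, and 14 turned sign, 12 of them uncalled in both fits. The other 2 were Cpa3 in Npm1c under the term for Y-linked reads (-0.19, adjusted p = 0.0303) and in neutrophils with listed-gene scaling (-0.095, adjusted p = 0.00447). When a library was left out, the changes in Flt3-ITD ran from -1.07 without its replicate 1 to 0.019 without its replicate 2 for Mcpt8, from -1.29 to 0.28 for Prg2, from -1.24 to 0.067 for Prg3, from -1.17 to 0.096 for Epx and from -0.67 to 0.31 for Hdc. Cpa3 in Npm1c ran from -0.070 without its replicate 2 to 0.39 without its replicate 1. In neutrophils, where its main change was 0.0023, Cpa3 turned to -0.094 with a pseudocount of 1, -0.59 with no minimum, -0.19 with a minimum of 0.2 RPKM and, with a library left out, ran from -0.052 (WT HSPC replicate 1) to 0.11 (neutrophil replicate 1). With no minimum Epx (-0.076) and Ms4a2 (-0.34) also turned in neutrophils. The cause was not tested. With the replicate block, 3 genes were called lower in Npm1c in place of 2 and the other counts were unchanged. The planned count test in edgeR was not run, since the deposited unit is RPKM. With 2 libraries a group, and 3 to 39 reads for Fcer1a, Ms4a2, Epx and Prg3 in the double mutant, the size of their falls is limited by counting.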

Other observations

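Genes of mature connective-tissue mast cells were barely detected in any group. Mcpt4 had no read in the mutant and neutrophil libraries and 1 and 2 reads in WT HSPC. Tpsb2 had 3 and 2 reads in Npm1c, 0 and 1 in the Flt3-ITD libraries, 0 in both double mutant libraries, 0 in both neutrophil libraries and 2 in each WT HSPC library. Cma1 had 33 and 17 reads in Npm1c, 10 and 9 reads in Flt3-ITD, 3 and 4 reads in the double mutant, 8 and 5 in neutrophils and 5 and 12 in WT HSPC. None reached the minimum for testing.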
